A study of Mus musculus with 30 samples.

Results

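The FGF-ERK feedback genes are the growth factor Fgf4 and 8 transcripts that follow ERK activity, namely Dusp6, Spry1, Spry2, Spry4, Spred1, Etv4, Etv5 and Egr1. Their probes were taken from the array table by gene symbol, and all probes of a gene were kept. Of these 9 genes, 8 had a probe among the 18097 gene symbols analysed, and Spry1 had none. The 8 genes were covered by 10 of 25697 probes, of which 3 belonged to Dusp6 and 1 to each other gene. Of the 10 probes, 9 were detected (detection p below 0.05) on 3 or more arrays and were tested among 15151 probes in all. The tenth, for Spry2, was detected on 0 of 30 arrays, with detection p between 0.331 and 0.954, so it is not described further.

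The RNA was from Ainv15, a mouse embryonic stem cell (ESC) line that carries rtTA, the activator through which doxycycline (Dox) turns on a transgene. In a rescue clone an shRNA silences an endogenous mRNA, and Dox at 1 μg/ml induces a version of that gene which escapes the shRNA. The 4 depleted clones were Bub1b_R (a mitotic checkpoint kinase), Chek1_R (a DNA damage checkpoint kinase), Ppm1g_R (a metal-dependent phosphatase) and Ppp2r1b_R (a scaffold subunit of protein phosphatase PP2A). They stood beside a control clone labelled Control_R, for which the labels add the strain background 129P2/OlaHsd, and what its vector carries is not given in the sources used here. For each of the 5 clones there were 3 arrays of cells kept in Dox and 3 of cells withdrawn from it for 5 days, which makes 30. The clones were expanded on primary mouse embryonic fibroblasts, which the study removed by adhesion before plating the ESCs on gelatin. In its differentiation assay the study kept LIF in the medium over the 5 days, both with Dox and without it. The labels number the replicates and do not say whether they were separate cultures or separate clones of 1 gene, so a p-value measures only the spread between these arrays, which may be technical.

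FGF4 is the main FGF that mouse ESCs secrete, and it acts on the same cells through FGF receptors, RAS, RAF and MEK to activate ERK. ERK in turn induces its own brakes. DUSP6 is a phosphatase that removes the activating phosphates from ERK, and the Sprouty and Spred proteins act further upstream on the signal through RAS and RAF. ETV4 and ETV5 are ETS transcription factors of the PEA3 family, and EGR1 is an immediate early zinc finger factor. In mouse ESCs, Fgf4 is transcribed under OCT4 and SOX2, and signaling through FGF and ERK prepares the cells to leave self-renewal. The arrays measured transcripts, not ERK phosphorylation. In bulk RNA, fewer cells that express a gene and less RNA per cell cannot be told apart.

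Fgf4 and at least 1 Dusp6 probe were called in opposite directions in the same 3 clones. The sequences just upstream of the start sites of these 2 genes are shown for that reason. In Ppm1g_R and the arrays labelled Chek1_R the Dusp6 call was that of its dim probe ILMN_1248537 alone. Set against the change in Control_R, that probe was called in no clone. Etv4 in Ppm1g_R and Egr1 in Bub1b_R were also called higher where Fgf4 was called lower. Egr1 was called higher in Control_R too, where Fgf4 was not called. In Ppm1g_R and the arrays labelled Chek1_R the change of Egr1 had the other sign. RefSeq promoter entries (GRCm38.p6, 300 bases each) matched 6 of the 9 genes, namely Fgf4, Dusp6, Spry1, Spry2, Spred1 and Etv5, with 7 promoters because Etv5 had 2. Both sequences are the 250 bases before the start site on the plus strand, read 5′ to 3′, Fgf4 at chr7:144861136-144861385 and Dusp6 at chr10:99262981-99263230.
Fgf4: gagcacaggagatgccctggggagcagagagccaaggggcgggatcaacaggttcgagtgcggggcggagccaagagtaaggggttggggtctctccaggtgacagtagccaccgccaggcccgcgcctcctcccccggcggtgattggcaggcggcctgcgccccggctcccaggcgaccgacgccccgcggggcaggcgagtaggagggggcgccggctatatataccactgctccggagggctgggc
Dusp6: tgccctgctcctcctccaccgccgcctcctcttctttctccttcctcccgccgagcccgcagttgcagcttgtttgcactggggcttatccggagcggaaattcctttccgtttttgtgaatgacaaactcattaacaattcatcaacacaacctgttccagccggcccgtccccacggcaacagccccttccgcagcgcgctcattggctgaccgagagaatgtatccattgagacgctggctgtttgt
An ETS core (CCGGAA), an AP-1 word (TGACTCA) and the octamer bound by OCT4 (ATTTGCAT) were searched on both strands of the whole 300 bases, and none of these words contains another. The ETS core was in 1 of the 7 member promoters, that of Spry2, against 14.9% of 32851 promoters of the same length. The AP-1 word and the octamer were in none of the 7, against 5.2% and 1.74% of all promoters. No match says only that these letters are absent from this window, so both sequences are in lower case throughout.

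The 30 arrays fell into 2 sets by signal level, and the sets follow the clones. Detected signals began at 12.9 to 20.9 on the 12 Bub1b_R and Control_R arrays and at 27.8 to 58.1 on the other 18, so for Chek1_R, Ppm1g_R and Ppp2r1b_R a difference from Control_R cannot be told apart from the set. Changes on Dox withdrawal lie within 1 set. Between 11733 and 13685 probes were detected per array, and all 8 ESC markers (such as Pou5f1, Sox2 and Nanog) were detected on all 3 arrays of every condition. Of the targeted genes, Ppm1g fell by 1.25 (log2) without Dox in Ppm1g_R, while Bub1b changed by -0.14 in Bub1b_R and Ppp2r1b by 0.20 in Ppp2r1b_R, neither called. Chek1 did not fall without Dox on the arrays labelled Chek1_R. It was detected on 0 of 3 arrays with Dox and on 3 of 3 without, at least 1.35-fold higher without Dox (fitted log2 change 0.71, adjusted p 0.00115), and these arrays are therefore named below as labelled Chek1_R. In every other condition all 4 targeted genes were detected on all 3 arrays. The study built the Bub1b and Chek1 copies without the shRNA target, which for shRNAs against the 3′ untranslated end meant omitting that end. A probe there would not read the induced copy. Whether the probes of the targeted genes lie in the Dox-induced copies is not given in the sources used here.

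On Dox withdrawal Fgf4 fell and at least 1 Dusp6 probe rose in 3 of the 4 depleted clones, Bub1b_R, Ppm1g_R and the arrays labelled Chek1_R. For Dusp6 all 3 of its probes were called in Bub1b_R, and in the other 2 ILMN_1248537 alone. In Ppp2r1b_R neither gene was called. Etv4 rose in Ppm1g_R, Egr1 rose in Bub1b_R and in Control_R, and Spred1 and Etv5 were called in no clone. Levels below are neqc-normalized log2 intensities of a probe, and a difference of 1 is a doubling. A probe was called changed at an adjusted p under 0.05 in limma with at least 1.5-fold. On Dox withdrawal, 5 of the 9 member probes were called in Bub1b_R, against 5.6% of all tested probes. The same count was 2 of 9 against 9.27% in the arrays labelled Chek1_R, 3 of 9 against 4.37% in Ppm1g_R, 0 of 9 against 4.82% in Ppp2r1b_R and 2 of 9 against 1.1% in Control_R. The 9 probes are not independent, since 3 are of Dusp6. The normalization adds an offset of 16 to each intensity, and with 200 in its place 1 of these calls was kept, that of Etv4 in Ppm1g_R, while the changes of Fgf4 shrank to -0.48 in Bub1b_R, -0.45 in the arrays labelled Chek1_R and -0.42 in Ppm1g_R. The median change over the member probes was 0.33, -0.02, 0.45, -0.08 and -0.02 in the same order, and the median over all tested probes lay between -0.02 and 0.

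**Figure D1:**
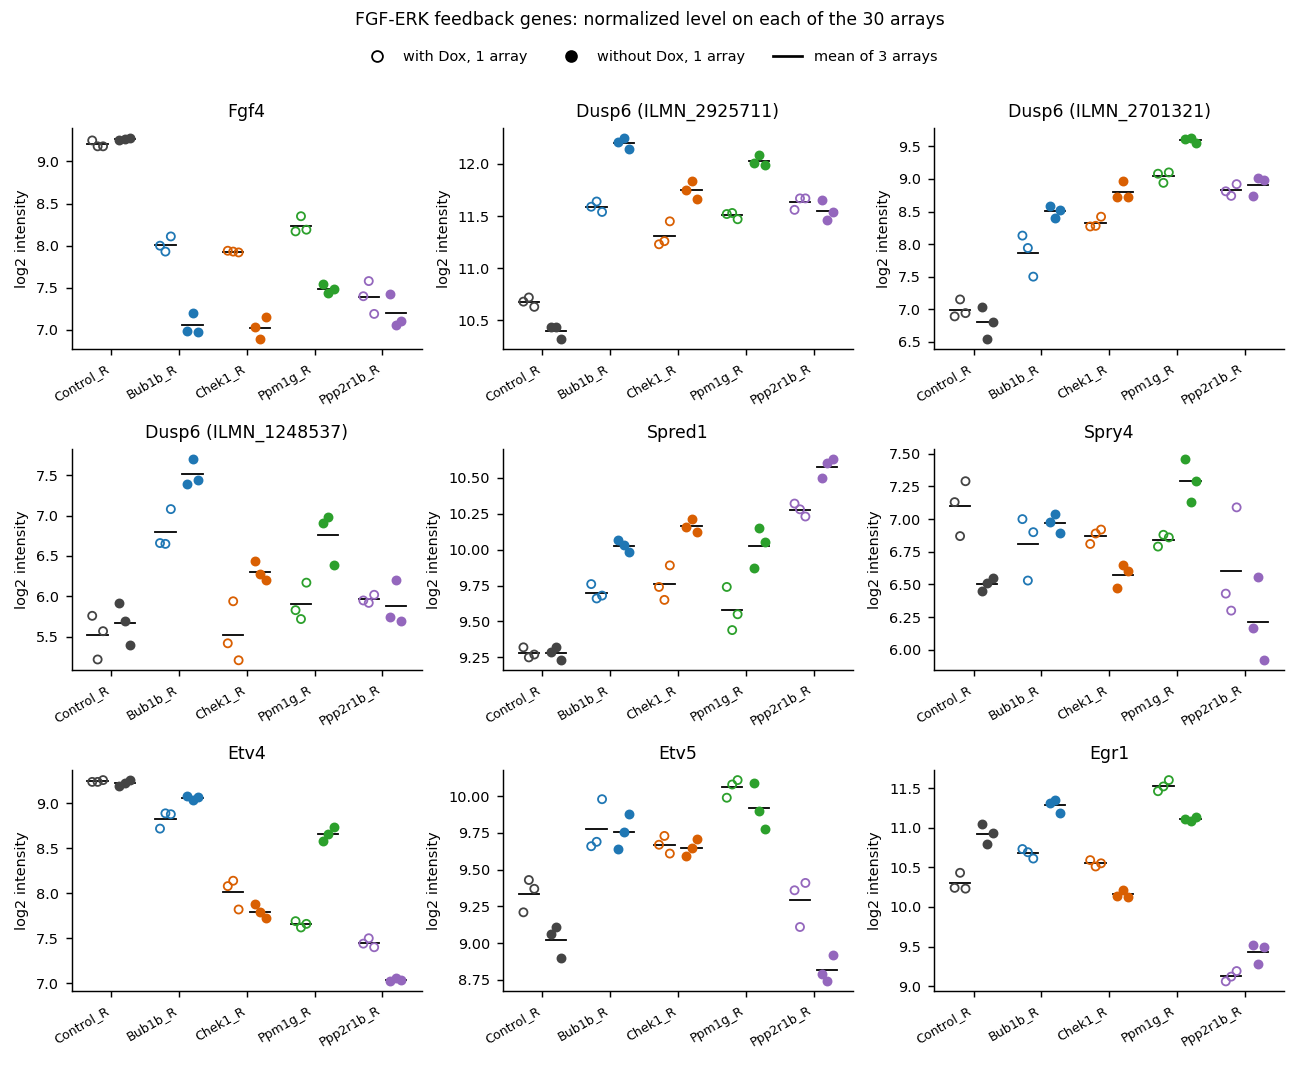
Normalized log2 intensity (vertical axis) of the 9 tested probes on each of the 30 arrays, by clone (horizontal axis), with open points for arrays with Dox, filled points for arrays without Dox and a bar at the mean of 3 arrays. Fgf4 was highest in Control_R, at 9.18 to 9.28, and lowest in the arrays labelled Chek1_R without Dox, at 6.89 to 7.15, while Dusp6 (brightest probe) ran from 10.32 in Control_R to 12.25 in Bub1b_R.

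Fgf4, the ligand, was measured at 8.00, 7.93 and 8.11 in Bub1b_R with Dox and at 6.99, 7.20 and 6.98 without. The arrays labelled Chek1_R gave 7.94, 7.93 and 7.92 with Dox and at 7.03, 6.89 and 7.15 without. In Ppm1g_R the 3 levels were 8.17, 8.35 and 8.19 with Dox and 7.54, 7.44 and 7.48 without. In each of these clones every array without Dox lay below every array with Dox. Fgf4 fell by 0.96 in Bub1b_R (SE 0.09, adjusted p 5.4e-08), by 0.91 in the arrays labelled Chek1_R (SE 0.09, adjusted p 5.15e-08) and by 0.75 in Ppm1g_R (SE 0.09, adjusted p 2.55e-06), which is 1.94-fold, 1.88-fold and 1.68-fold. In Ppp2r1b_R the levels were 7.40, 7.58 and 7.19 with Dox and 7.43, 7.06 and 7.11 without, and the 2 conditions overlapped. The change there was -0.19, with a 95% interval from -0.38 to 0.01. Control_R stood apart at the top, with 9.25, 9.18 and 9.18 with Dox and 9.25, 9.27 and 9.28 without, a change of 0.06 (interval -0.13 to 0.26).

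The order of the Fgf4 levels over the 10 conditions put both Control_R conditions first, followed by Ppm1g_R, Bub1b_R and the arrays labelled Chek1_R with Dox, and then by the remaining conditions. Neighbours from Ppm1g_R without Dox (mean 7.49) down to the arrays labelled Chek1_R without Dox (mean 7.02) overlapped in range, as did Bub1b_R and the arrays labelled Chek1_R with Dox (means 8.01 and 7.93). Ppp2r1b_R had a low level already with Dox (mean 7.39), near that of the other depleted clones without it. The fall in Ppp2r1b_R was smaller than that in Bub1b_R by 0.77 (adjusted p 0.00093) and than that in the arrays labelled Chek1_R by 0.72 (adjusted p 0.000602), 2 of the 6 pairs of depleted clones compared. Fgf4 was the 1 member probe of 9 called in the mean of the 4 depleted clones, against 3.56% of all probes, with a fall of 0.70 (interval -0.80 to -0.60, adjusted p 1.18e-11). Without the arrays labelled Chek1_R the mean of the other 3 clones was -0.63 (adjusted p 1.93e-09).

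Dusp6, the ERK phosphatase, showed the opposite course. On its brightest probe (ILMN_2925711) the levels were 11.59, 11.64 and 11.54 in Bub1b_R with Dox and 12.21, 12.25 and 12.14 without. The arrays labelled Chek1_R gave 11.23, 11.26 and 11.45 with Dox and 11.75, 11.84 and 11.66 without. In Ppm1g_R they were 11.52, 11.53 and 11.47 with Dox and 12.01, 12.09 and 11.99 without. No array with Dox reached any array without it in these clones. The rise was called in Bub1b_R (0.61, SE 0.07, adjusted p 2.02e-07). The differences of 0.44 in the arrays labelled Chek1_R (adjusted p 1.22e-05) and of 0.53 in Ppm1g_R (adjusted p 2.31e-06) passed on p and stayed below 1.5-fold. Ppp2r1b_R gave 11.56, 11.67 and 11.67 with Dox and 11.65, 11.46 and 11.54 without, with overlapping arrays and a change of -0.08. Control_R gave 10.68, 10.72 and 10.63 with Dox and 10.44, 10.44 and 10.32 without. In Control_R the arrays without Dox were all lower, by -0.28 (adjusted p 0.00991), under 1.5-fold.

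The other 2 Dusp6 probes gave the same signs in the 3 clones. ILMN_2701321 changed by 0.65 in Bub1b_R (called), 0.48 in the arrays labelled Chek1_R and 0.55 in Ppm1g_R, and by 0.08 in Ppp2r1b_R and -0.20 in Control_R. ILMN_1248537, detected on 26 of 30 arrays, was called in all 3 clones, with 0.71 in Bub1b_R, 0.79 in the arrays labelled Chek1_R, where it was detected on 1 of 3 arrays with Dox, and 0.85 in Ppm1g_R. Its change was -0.08 in Ppp2r1b_R and 0.16 in Control_R. These 3 calls were lost with an offset of 200, with a 2-fold limit and in the methods' t-test after Benjamini-Hochberg adjustment. With the SE of this probe at 0.19, its intervals were wide (0.39 to 1.19 in the arrays labelled Chek1_R, for example). The calls of the 3 probes thus differed, mostly by where a change near 1.5-fold fell against the limit. Leaving out replicate 3 with Dox or replicate 2 without Dox of Bub1b_R took the brightest Dusp6 probe to 0.58 at the lowest and ended its call there. Without replicate 3 with Dox, ILMN_2701321 in Bub1b_R was at 0.47 and not called either.

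Spred1, which restrains RAF activation by RAS, changed little and alike. In Bub1b_R its 3 levels ran from 9.66 to 9.76 with Dox and from 9.98 to 10.07 without. Those labelled Chek1_R ran from 9.65 to 9.89 and from 10.12 to 10.21, those of Ppm1g_R from 9.44 to 9.74 and from 9.87 to 10.15, and those of Ppp2r1b_R from 10.23 to 10.32 and from 10.50 to 10.63. The ranges with and without Dox did not overlap in any depleted clone. The differences of 0.33, 0.40, 0.45 and 0.30 all had an adjusted p of 0.00432 or less and none reached 1.5-fold, so none was called. In Control_R the difference was 0.00 (interval -0.16 to 0.15). Spred1 did not pass the F-test for a difference among the 4 depleted clones (adjusted p 0.652).

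Spry4 was the Sprouty gene with a detected probe. It was called in Control_R alone, where it fell by 0.59 (SE 0.16, adjusted p 0.0261) from 7.13, 6.87 and 7.29 with Dox to 6.45, 6.51 and 6.55 without. That call was lost when any of 5 of the 6 Control_R arrays was left out, the exception being replicate 2 with Dox. In the depleted clones the change was 0.16 in Bub1b_R, -0.30 in the arrays labelled Chek1_R, 0.45 in Ppm1g_R (adjusted p 0.0504) and -0.39 in Ppp2r1b_R, none of them called. Ppp2r1b_R with Dox alone ran from 6.30 to 7.09, as wide as most differences between conditions.

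Etv4, an ETS factor, was called in Ppm1g_R alone. There it rose by 1.00 (SE 0.07, 2.00-fold, adjusted p 1.67e-10), from 7.69, 7.62 and 7.66 with Dox to 8.58, 8.66 and 8.74 without. The other clones gave smaller values, 0.23 in Bub1b_R, -0.22 in the arrays labelled Chek1_R, -0.41 in Ppp2r1b_R and -0.02 in Control_R, none called. In all 4 depleted clones the limma change passed on adjusted p, as a rise in 2 of them. Ppp2r1b_R ran from 7.40 to 7.50 with Dox and from 7.02 to 7.06 without, under 1.5-fold and without overlap. Its change in Ppm1g_R exceeded that in Bub1b_R by 0.77, that in the arrays labelled Chek1_R by 1.22 and that in Ppp2r1b_R by 1.42, each with an adjusted p of 1.89e-05 or less. Etv5, its close relative, was called in no clone. Its changes were -0.02, -0.02 and -0.14 in Bub1b_R, the arrays labelled Chek1_R and Ppm1g_R, and -0.48 in Ppp2r1b_R (adjusted p 0.000796, 1.39-fold). Control_R gave -0.31 for Etv5, with an interval from -0.52 to -0.11 and an adjusted p of 0.0508.

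Egr1, the immediate early factor, also moved in the control. In Control_R it rose by 0.62 (SE 0.07, adjusted p 9.23e-06), from 10.24, 10.43 and 10.23 with Dox to 11.04, 10.79 and 10.93 without. In Bub1b_R it rose by 0.61 (SE 0.07, adjusted p 1.05e-06), from 10.73, 10.69 and 10.61 to 11.31, 11.35 and 11.19. In both clones every array without Dox was above every array with it. Without replicate 3 with Dox or replicate 2 without Dox, the Bub1b_R change was no longer at 1.5-fold (0.57 at the lowest), and without replicate 3 with Dox or replicate 1 without Dox the same held for Control_R (0.56 at the lowest). Egr1 had the other sign in the arrays labelled Chek1_R and in Ppm1g_R, with -0.39 and -0.41 (adjusted p 0.000201 and 0.0002), and Ppp2r1b_R gave 0.31 (adjusted p 0.00314). These 3 were under 1.5-fold, and the arrays with and without Dox did not overlap in any of them.

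**Figure D2:**
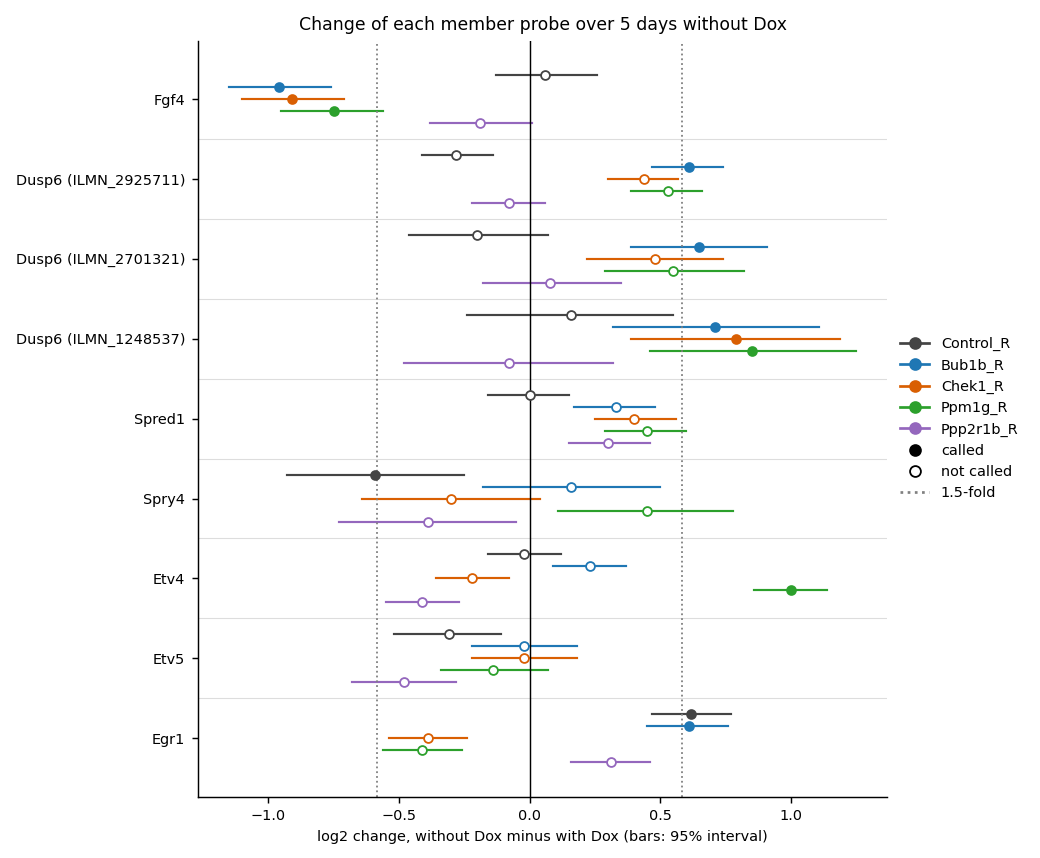
Change in log2 intensity (without Dox minus with Dox, horizontal axis) of the 9 tested probes in each clone, with 95% intervals from the limma fit. Filled points were called and dotted lines mark 1.5-fold. Fgf4 lies to the left at -0.96, -0.91 and -0.75 in Bub1b_R, the arrays labelled Chek1_R and Ppm1g_R, the Dusp6 probes lie to the right in the same clones, and Spred1 lies between 0.30 and 0.45 in all 4 depleted clones.

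Because Egr1, Spry4 and Dusp6 also differed in Control_R, the change in each depleted clone was compared with that in Control_R within the same fit. The 4 comparisons share the 6 Control_R arrays. In Bub1b_R 4 of 9 member probes differed from Control_R in their change, against 5.15% of all probes. This held for 4 of 9 against 8.99% in the arrays labelled Chek1_R, for 6 of 9 against 5.27% in Ppm1g_R and for 0 of 9 against 3.28% in Ppp2r1b_R. The differences of Fgf4 were -1.02 in Bub1b_R (adjusted p 1.62e-05), -0.97 in the arrays labelled Chek1_R (adjusted p 9.8e-06) and -0.82 in Ppm1g_R (adjusted p 0.000217). Dusp6 on its brightest probe had differences of 0.89, 0.72 and 0.81 in these clones (adjusted p 4.56e-06 or less), all called, since the change in Control_R was below 0. The dim probe ILMN_1248537 was called in none of them, with 0.55, 0.63 and 0.70.

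Egr1 in Bub1b_R did not differ from Control_R beyond error, with a difference of -0.01 (interval -0.23 to 0.20). Its change differed from that in Control_R by -1.01 in the arrays labelled Chek1_R and by -1.03 in Ppm1g_R (adjusted p 1.38e-07 and 4.97e-07). Spry4 exceeded its Control_R change by 0.75 in Bub1b_R (adjusted p 0.0331) and 1.04 in Ppm1g_R (adjusted p 0.00364). The Spry4 call in Bub1b_R was lost in 7 of 12 fits that left out 1 array. Over the 12 fits the difference lay between 0.61 and 0.87. The call was lost without any one of replicates 1 and 3 of Control_R with Dox, replicates 1 and 2 of Control_R without Dox, replicate 2 of Bub1b_R with Dox, or replicates 1 and 2 of Bub1b_R without Dox. Etv4 exceeded Control_R by 1.02 in Ppm1g_R (adjusted p 1.77e-07). For Spred1 the differences of 0.33, 0.41, 0.45 and 0.31 were under 1.5-fold and reached an adjusted p under 0.05 in the first 3 clones. An F-test across the 4 depleted clones passed for 7 of the 9 member probes, against 24% of all probes. The exceptions were Spred1 and the Dusp6 probe ILMN_2701321 (adjusted p 0.0811). Without the arrays labelled Chek1_R the F-test passed for 6 of the 9, against 15.4% of all probes.

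The depleted clones also stood apart from Control_R at steady state with Dox, when the rescue gene is supplied. Of the 9 member probes, 4 differed in Bub1b_R with Dox against 12.7% of all probes. The arrays labelled Chek1_R had 4 of 9 against 17.6%, Ppm1g_R 6 against 29.1% and Ppp2r1b_R 6 against 28.3%. Without Dox the counts were 6 of 9 in Bub1b_R against 22.6%, 8 in the arrays labelled Chek1_R against 28.8%, 7 in Ppm1g_R against 33.5% and 6 in Ppp2r1b_R against 33.7%. All 8 comparisons use the Control_R arrays, and of the depleted clones Bub1b_R alone is in the signal set of Control_R. The sample records of Control_R were numbered by GEO well before those of the 4 depleted clones, which form 1 run, so clone and deposit cannot be told apart in any comparison with Control_R, Bub1b_R included.

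Within that set, Fgf4 in Bub1b_R was 2.28-fold below Control_R with Dox (log2 difference -1.19, SE 0.09) and 4.64-fold below it without (-2.21, SE 0.09). Dusp6 on its brightest probe was above Control_R by 0.92 with Dox and by 1.80 without. Spred1 differed by 0.42 with Dox, under 1.5-fold, and by 0.75 without, which was called. Etv5 was above Control_R by 0.45 with Dox and by 0.74 without, the latter called. Etv4 in Bub1b_R differed from Control_R by -0.42 with Dox (adjusted p 2.31e-05, no overlap between the arrays), under 1.5-fold, and by -0.16 without.

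Across the sets, Fgf4 was below Control_R in the other 3 depleted clones as well. With Dox the differences were -0.97 in Ppm1g_R, -1.82 in Ppp2r1b_R and -1.28 in the arrays labelled Chek1_R, and without Dox they were -1.78, -2.07 and -2.25. On its brightest probe Dusp6 was above Control_R, by 0.83, 0.96 and 0.64 with Dox and by 1.63, 1.15 and 1.35 without, in the same order. Etv4 was below it in these 3 clones, at -1.59, -1.80 and -1.23 with Dox and -0.57, -2.19 and -1.43 without, and of these the value in Ppm1g_R without Dox alone was under the fold limit. Egr1 was above Control_R in Ppm1g_R with Dox (1.22) and below it in Ppp2r1b_R with and without Dox (-1.18 and -1.49). Spred1 was highest in Ppp2r1b_R, 0.99 above Control_R with Dox and 1.30 above it without. Scaling arrays by their median moved the median of all probes for Ppp2r1b_R against Control_R from -0.04 to -0.18 with and without Dox. A called difference is at least 1.5-fold and so exceeds this shift by definition, which says nothing about the scaling. Over the alternative settings the lowest value of the brightest Dusp6 probe in Ppp2r1b_R was 0.63 with Dox and 0.84 without.

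**Figure D3:**
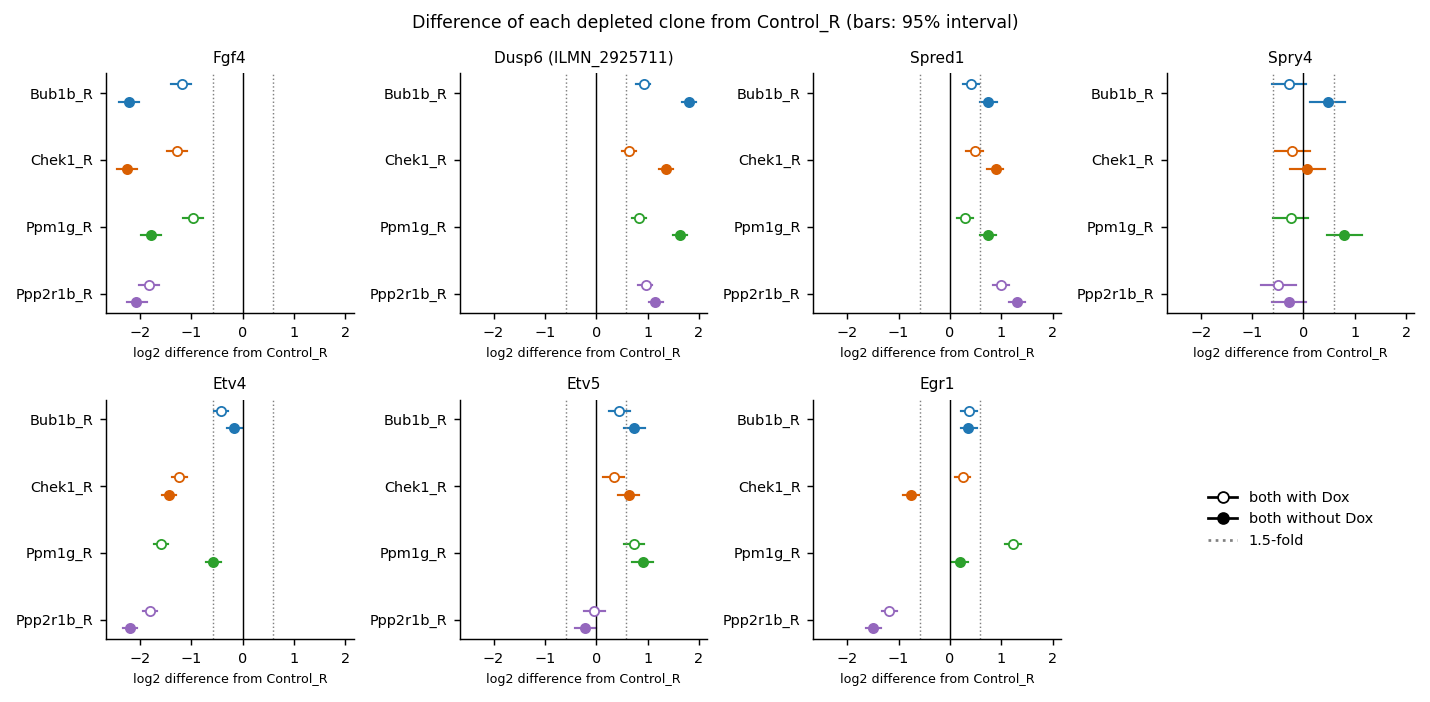
Log2 difference from Control_R (horizontal axis) of 7 members, each by its brightest probe, in the 4 depleted clones, with open points where both clones had Dox, filled points where neither had it, 95% intervals as bars and dotted lines at 1.5-fold. Fgf4 lies left of 0 in all 8 comparisons, from -0.97 to -2.25, and Dusp6 right of 0 in all 8, from 0.64 to 1.80.

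Over the 10 condition means the levels of Fgf4 and Dusp6 (brightest probe) had a Pearson r of -0.90 and a Spearman rho of -0.81, and those of Fgf4 and Spred1 had -0.91 and -0.90. The other Dusp6 probes gave smaller values against Fgf4, r -0.81 and rho -0.48 for ILMN_2701321, and r -0.57 and rho -0.55 for ILMN_1248537. Etv4 and Fgf4 had an r of 0.55, and Egr1 and Etv5 of 0.67. These 10 points share clones, and the clones of 1 signal set share it too, so the values describe the conditions only. Both Control_R means lay at the ends, for Fgf4 at 9.27 and 9.20 with the next at 8.24. For Dusp6 (brightest probe) they were 10.40 and 10.68 with the next at 11.31. The correlation without Control_R is not given here. Among 5259 probes that spanned at least 1 log2 unit over the same 10 means, those most like Fgf4 were Chrna9, Flcn and Ly6g6d (r 0.977, 0.976 and 0.973). Those most like Dusp6 were Gtf2ird2, Kif1b and Slc35b4 (r 0.969, 0.968 and 0.964), and those most like Spred1 were Prtg, Gcnt1 and Adcy2 (r 0.994, 0.992 and 0.984). The nearest to Etv4 were Mcm4, Coq6 and Slc25a38 (r 0.982, 0.975 and 0.965), and to Etv5 Timm10, 1700012H05Rik and Tuba4a (r 0.96, 0.951 and 0.951). Egr1 was nearest to Zfp371, Bpnt1 and Ttn (r 0.934, 0.923 and 0.918). Spry4 had the loosest neighbours, Nsf, 4732496O08Rik and Dpysl3 (r 0.885, 0.861 and 0.84).

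The rest of the pathway was read from 5 lists of its genes, by the brightest tested probe of each gene. Counts on Dox withdrawal in these and the marker lists below stand beside the share of all tested probes called. That share was 5.6% in Bub1b_R, 9.27% in the arrays labelled Chek1_R, 4.37% in Ppm1g_R, 4.82% in Ppp2r1b_R and 1.1% in Control_R. Of 8 other FGF ligands, 6 were tested. In Bub1b_R 3 rose and 1 fell on Dox withdrawal, and in the arrays labelled Chek1_R 4 rose and 1 fell. Ppm1g_R had none called, while Ppp2r1b_R and Control_R had 1 that rose each. The median over the 6 was 0.66, 1.65, 0.19, 0.40 and 0.08, beside medians of all genes between -0.02 and -0.01. Fgf8, a ligand of the gastrulating embryo, rose by 1.41 in Bub1b_R, 3.61 in the arrays labelled Chek1_R, 1.70 in Ppp2r1b_R and 0.76 in Control_R. Fgf5, a ligand of the primed epiblast, rose by 0.95 in Bub1b_R and 2.42 in the arrays labelled Chek1_R, and Fgf10 by 1.59 and 2.11. Fgf17 rose by 1.19 and Fgf15 fell by 0.87 in the arrays labelled Chek1_R. The sixth ligand, Fgf1, fell by 0.78 in Bub1b_R. In Bub1b_R and in the arrays labelled Chek1_R, Fgf4 thus fell while Fgf5, Fgf8 and Fgf10 rose.

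Receptors and the kinase cascade gave few calls. Of 6 receptor genes, 3 were tested, and Fgfr2 alone was called, with a fall of 0.61 in the arrays labelled Chek1_R (adjusted p 0.0261). Of 21 adaptor and cascade genes, 17 were tested. Frs3, an adaptor of the FGF receptor, fell by 0.67 in Bub1b_R and 0.71 in Ppm1g_R, and none of the other 16 was called in any clone. The median over the 17 lay between -0.01 and 0.09. Set against the change in Control_R, 0 of the 17, Frs3 included, differed in any depleted clone. The share of all probes that differed lay between 3.28% and 8.99%.

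Among 10 tested of 11 other inhibitors and phosphatases, Dusp4, a nuclear ERK phosphatase, rose in all 4 depleted clones. Its changes were 1.91 in the arrays labelled Chek1_R, 1.12 in Bub1b_R, 0.84 in Ppm1g_R and 0.86 in Ppp2r1b_R, against 0.14 in Control_R (adjusted p 0.14). Dusp2 rose by 1.51 in Bub1b_R, and the other 8 were called nowhere. Of 15 other ERK-responsive factors and early genes, 9 were tested, and none fell in any clone. In Bub1b_R 3 rose, namely Myc by 0.82, Phlda1 by 0.79 and Jun by 0.64. Phlda1 alone rose in Ppm1g_R, by 1.24. In Ppp2r1b_R, in which 0 of 9 member probes were called, 5 of these 9 rose, Fos by 0.93, Phlda1 by 0.74, Ier3 by 0.73, Jun by 0.68 and Junb by 0.67. The arrays labelled Chek1_R and Control_R had none called, although the median over the 9 was 0.31 in Control_R, beside 0.49 in Bub1b_R and 0.67 in Ppp2r1b_R. Set against the change in Control_R, 0 of the 9 differed in Bub1b_R and 0 in Ppp2r1b_R, and Phlda1 alone differed in Ppm1g_R (0.93, adjusted p 0.000298).

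**Figure D4:**
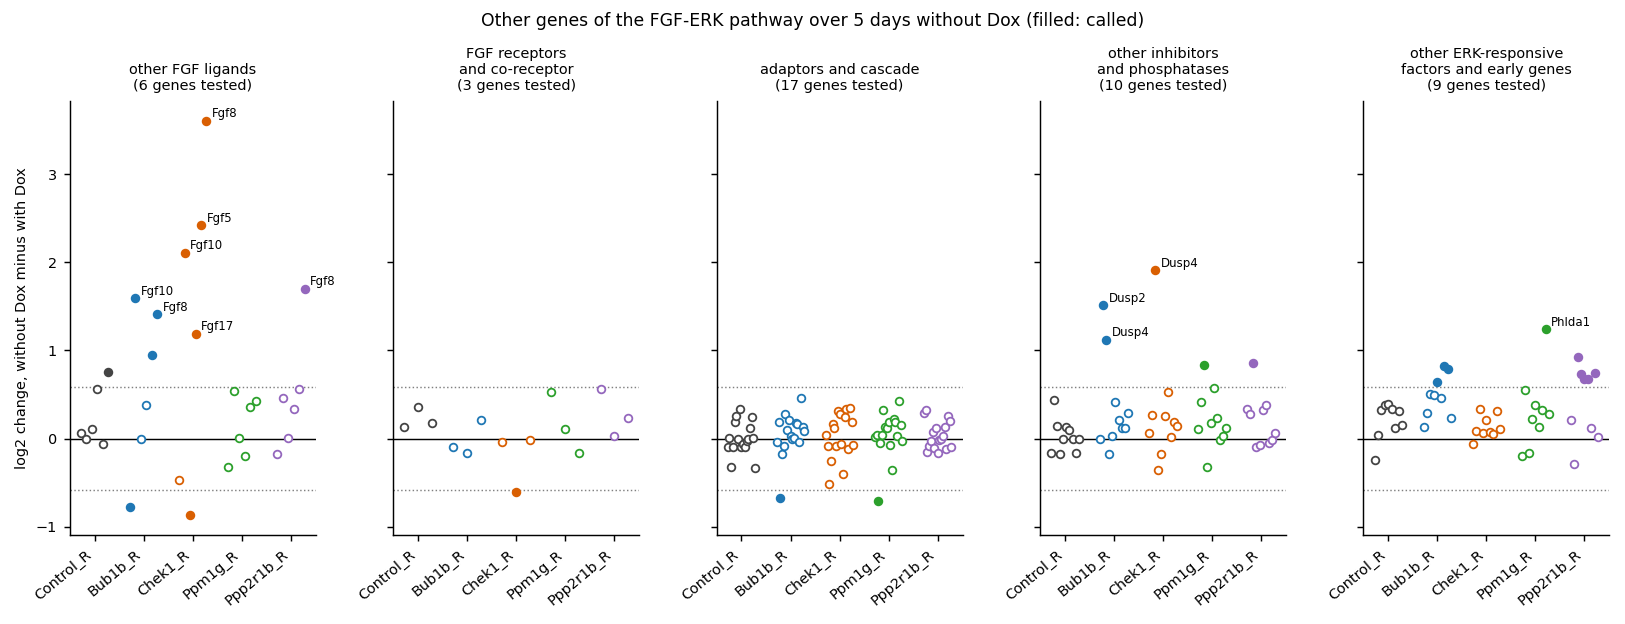
Change in log2 intensity (without Dox minus with Dox, vertical axis) of the tested genes of 5 pathway lists, 1 panel a list, by clone (horizontal axis), 1 point a gene. Filled points were called, dotted lines mark 1.5-fold and called genes at 1 log2 unit or more carry their names. Fgf8 reaches 3.61 in the arrays labelled Chek1_R, Dusp4 is filled in all 4 depleted clones (0.84 to 1.91), and the panel of adaptors and cascade holds 2 filled points, both Frs3.

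Markers of other cell types also changed on Dox withdrawal in each depleted clone. Of 6 early mesoderm and primitive streak markers (T, Mixl1, Evx1, Eomes, Mesp1 and Gsc), 6 rose on Dox withdrawal in Bub1b_R, 6 in the arrays labelled Chek1_R, 5 in Ppm1g_R, 3 in Ppp2r1b_R and 1 in Control_R. Their summed intensity went from 1128 to 1194 with Dox to 5555 to 5638 without in Bub1b_R, and from 287.7 to 323.5 to 3286 to 3426 in the arrays labelled Chek1_R. In Ppm1g_R it went from 1080 to 1135 to 2321 to 2481, in Ppp2r1b_R from 477.2 to 494.5 to 1199 to 1357, and in Control_R it was 307.3 to 364.4 with Dox and 355.5 to 378 without. Of 10 fibroblast feeder markers, 6 were tested, and Col1a2, Lum, Postn and S100a4 did not pass detection. Among the 6, 1 rose in Bub1b_R, 4 rose and 1 fell in the arrays labelled Chek1_R, 2 rose and 1 fell in Ppm1g_R, 3 rose in Ppp2r1b_R and none was called in Control_R. The summed intensity of the 6 without Dox was 3324 to 3444, 3887 to 4073, 2981 to 3148, 5176 to 5346 and 2020 to 2060 in these clones, and with Dox 2435 to 2639, 2094 to 2212, 2277 to 2346, 3539 to 3743 and 1826 to 1854. Of the 8 ESC markers, 1, 1, 0, 3 and 0 fell in the same order. Primitive endoderm markers (4 tested) rose in Bub1b_R alone, where 3 were called. Of these 4, 1 was detected on all 3 Bub1b_R arrays with Dox and 2 on all 3 without. Without Dox 0 of the 4 differed between Bub1b_R and Control_R, against 22.6% of all probes. Of 4 primed epiblast markers, which include Fgf5, 1 rose in Bub1b_R, 1 rose and 1 fell in the arrays labelled Chek1_R and 1 fell in Ppm1g_R. Of 4 trophoblast markers 2 were tested, 1 of them the Eomes of the streak list, and both rose in each depleted clone and in Control_R neither. The part of these cell types in the changes of Fgf4, Dusp6 and Spred1 was not tested.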

How the data were processed

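The 30 Illumina mouse WG-8 v2 arrays measured RNA of 5 clones with and without Dox, 3 arrays each. The authors deposited a background-corrected signal intensity per probe, not normalized between arrays, and a detection p-value. The submitters' processing notes name lumi, and its settings are not given in the sources used here. Spreadsheet dates stood in 46 detection p cells of Ppm1g_R without Dox replicate 2 and 14 of Bub1b_R without Dox replicate 2. Converting the date back served 28 and 6 of them, and the remaining 18 and 8 were given the p of the probe nearest in signal. No per-sample column was left unused.

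Intensities were normalized by neqc of limma 3.58.1 (R 4.3.3, with statmod 1.5.0), with offset 16, quantiles and log2, which pulls small changes of dim probes toward 0. The 15151 probes tested were detected (p below 0.05) on 3 or more arrays. One limma fit took 10 condition means (20 residual and 3.38 prior degrees of freedom), with Benjamini-Hochberg adjustment over all 15151 probes in each contrast. Calls needed 1.5-fold or more with an adjusted p below 0.05, and the F-test used the adjusted p alone. The number of arrays limits the precision. The scripts were tested on simulated data.

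The members and lists were chosen with earlier results of these data known. Named are all member probes, the 4 targeted genes, up to 5 called genes per pathway list (Fgf1 and Junb were added after their values were seen), and the 3 genes nearest to each member spanning at least 1 log2 over the conditions. A gene's brightest tested probe stands for it in lists. Alternatives were no background correction, median scaling, offsets of 50 and 200, no detection filter or a stricter one (0.01 on all 3 arrays of a condition), only the arrays compared, a replicate block, 2-fold or no fold limit, the methods' t-test, and leaving out each array. Leaving out all arrays labelled Chek1_R was chosen after seeing the data. Promoters are RefSeq's, GRCm38.p6. Probe positions were not used here.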

Additional observations from a re-analysis of the deposited data

Results flagged for a closer look

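A change on Dox withdrawal that differed from that in Control_R (limma, adjusted p under 0.05 and at least 1.5-fold) was found for Fgf4 in Bub1b_R (-1.02), the arrays labelled Chek1_R (-0.97) and Ppm1g_R (-0.82). For Dusp6 the same comparison gave 0.89, 0.72 and 0.81 on probe ILMN_2925711 and 0.85, 0.68 and 0.75 on probe ILMN_2701321, in the same order of clones. Egr1 gave -1.01 in the arrays labelled Chek1_R and -1.03 in Ppm1g_R, Spry4 gave 0.75 in Bub1b_R and 1.04 in Ppm1g_R, and Etv4 gave 1.02 in Ppm1g_R.

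The change on Dox withdrawal differed among the 4 depleted clones by the F-test for Fgf4 (adjusted p 0.000453), Dusp6 on ILMN_2925711 (2.26e-05) and on ILMN_1248537 (0.0334), Egr1 (6.04e-08), Spry4 (0.0232), Etv4 (4.04e-10) and Etv5 (0.0395). Without the arrays labelled Chek1_R, Etv5 had an adjusted p of 0.0515 and the other 6 stayed under 0.05. Groups of 3 arrays are too small for a test of single outlying arrays.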

How the results depend on the processing

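No called member value changed sign under any alternative. Only no background correction, median scaling, the offsets of 50 and 200 and leaving out arrays could change a sign. The other alternatives keep the size of a change and alter only the filter, the error or the limit. With no fold limit no call could be lost, so the next counts partly hold outcomes fixed in advance. Of 859 such values, 777 kept their call and 82 lost it, and of 546 values with 1 array left out, 522 kept it. In the rest of this paragraph, the share of all probes at the same setting stands beside each count of called member probes. With an offset of 50, the counts on Dox withdrawal were 3 in Bub1b_R (3.04%), 1 in the arrays labelled Chek1_R (6.04%) and 1 in Control_R (0.297%). With an offset of 200, which shrinks changes of dim probes by construction, they were 0 in Bub1b_R (1.07%), 0 in the arrays labelled Chek1_R (2.26%), 1 in Ppm1g_R (0.667%), 0 in Control_R (0.099%) and 0 in the mean (0.693%). Relative to Control_R they were then 1 in Bub1b_R (0.785%), 2 in the arrays labelled Chek1_R (2.03%) and 3 in Ppm1g_R (0.799%), and Bub1b_R with Dox had 2 against Control_R (3.27%). A 2-fold limit gave 0 in Bub1b_R (1.01%), 0 in the arrays labelled Chek1_R (2.6%), 1 in Ppm1g_R (0.574%), 0 in Control_R (0.066%) and 0 in the mean (0.726%) on Dox withdrawal. Relative to Control_R it gave 1 (0.871%), 1 (2.25%) and 3 (0.805%) in the first 3 clones. Against Control_R it gave 4 in the arrays labelled Chek1_R (9.9%) and 4 in Ppm1g_R (12.8%) without Dox, and 2 in Bub1b_R (3.32%) and 3 in Ppm1g_R (10.9%) with Dox. With no fold limit, 7 were called in the arrays labelled Chek1_R (30.9%), 7 in Ppm1g_R (23.4%), 4 in Ppp2r1b_R (25.3%) and 7 in the mean (46.4%) on Dox withdrawal, 1 in Ppp2r1b_R relative to Control_R (8.28%), and 8 in Bub1b_R (39.9%) and 7 in the arrays labelled Chek1_R (49.6%) against Control_R with Dox. Median scaling gave 1 in Control_R (0.818%) and 2 in the mean (3.57%), no background correction 2 in the mean (7.97%), and a fit of only the arrays compared 1 in Control_R (0.528%). The methods' t-test after Benjamini-Hochberg gave 3 in Bub1b_R (4.48%), 1 in the arrays labelled Chek1_R (8.21%) and 0 in Control_R (0.099%), and unadjusted 5 (5.45%), 2 (9.21%) and 2 (1.1%).

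With 1 array left out, the counts on Dox withdrawal ranged from 2 to 5 in Bub1b_R (2 without replicate 3 with Dox and 3 without replicate 2 without Dox), 2 to 2 in the arrays labelled Chek1_R, 3 to 4 in Ppm1g_R, 0 to 0 in Ppp2r1b_R, 0 to 2 in Control_R and 1 to 2 in the mean. Control_R had 0 without replicate 3 with Dox or replicate 1 without Dox, and 1 without 3 other arrays (replicate 1 with Dox, replicates 2 and 3 without). The mean had 2 without replicate 3 of Bub1b_R or Ppm1g_R with Dox, replicate 2 labelled Chek1_R with Dox, replicate 3 of Ppm1g_R without Dox, or replicate 1 or 3 of Ppp2r1b_R without Dox. Relative to Control_R they ranged from 3 to 4, 3 to 5, 6 to 7 and 0 to 0, without Dox against Control_R from 6 to 6, 6 to 8, 7 to 8 and 6 to 6, with Dox from 4 to 4, 3 to 4, 6 to 6 and 6 to 7, and in the F-test from 5 to 7. The shares of all probes called in these fits are not given here. With all arrays kept they were 5.6%, 9.27%, 4.37%, 4.82% and 1.1% in the 5 clones on Dox withdrawal, and 3.56% in the mean. The cause of these moves was not tested.

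The replicate numbers share a number only, since 1 of 15 same-number correlations was over 0.1 (range -0.08 to 0.13) and 12 of 30 arrays correlated best with their own number. With the replicate number as a block the called member probes stayed at 5, 2, 3, 0 and 2 on Dox withdrawal, and no other count changed. Spry2 was not well above background on any array, which leaves no change to read, and ILMN_1248537 was detected on 26 of 30 arrays.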
